A study of Mus musculus with 4 samples.

Results

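Cdkn1a, Mdm2, Psrc1, Eda2r, Ccng1, Trp53inp1, Phlda3, Sesn2, Zmat3 and Aen are 10 genes known as transcriptional targets of p53. They were taken from the 22180 genes of the array by name, through probe sets that the platform annotation gives exactly 1 symbol. Each of the 10 had 1 such probe set, so no choice among probe sets was needed. The arrays measured total RNA of mammary epithelial cells from 4 week-old mice congenic on FVB/NJ. The MMTV-Cre group (2 samples) came from mice expressing Cre recombinase, a DNA-cutting and rejoining enzyme of a bacteriophage, from the mouse mammary tumour virus long terminal repeat. The wild-type group (2 samples) came from littermates without it. The cells were inguinal gland tissue, taken without the lymph node, that had been digested with collagenase and spun to remove stroma. The labels give no founder line for the transgene and do not say whether a sample pooled animals, and the Cre transcript itself was not analysed here. Per the labels, the samples within each group are biological replicates.

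p53 is a transcription factor that DNA damage and other stresses stabilise. It binds paired copies of a short DNA element near its target genes and raises their transcription, which stops the cell cycle, repairs DNA or leads to cell death. Mdm2, itself a target, marks p53 for degradation and so closes a feedback loop. Cre can cut genomic sequences that resemble its recognition site, and such cuts have been described as a source of DNA damage signalling in Cre-expressing cells, which is why p53 targets are a readout of interest in a Cre-only control. Comparing MMTV-Cre cells with wild-type cells asks what the transgene alone does to the transcripts of these cells.

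The p53 element is shown first because it is what these genes are known to share. No search for it was used to choose them, but they were chosen as known p53 targets. How often it stands in their windows is therefore not independent of that choice. RefSeq promoter windows of mouse build GRCm38.p6, from 250 bases before a gene's start to 50 after it, were at hand for 8 of the 10 genes in 11 windows. Trp53inp1 and Zmat3 are named only. Both strands were searched for the p53 half-site consensus, 10 bases made of purines, a C, a pair of A or T bases, a G and then pyrimidines. The consensus is its own reverse complement. It occurred in windows of 4 of the 8 genes (50%), and in windows of 2582 of 27025 genes in the table (9.55%). The 20 bases holding each half-site and the better matching neighbouring 10 bases are given here, 5′ to 3′ on the gene's strand, with the half-site in capitals.
Cdkn1a: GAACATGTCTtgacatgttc
Ccng1: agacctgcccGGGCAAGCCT
Aen: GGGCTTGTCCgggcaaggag
Mdm2: GAACTTGCCTagcgaccatt
The Cdkn1a element lay at chr17:29090928-29090947, inside the more upstream of the gene's 2 windows and 51 bases before the gene start of that window. Its neighbouring 10 bases matched the consensus at 9 of 10 positions. It was the only member half-site with the core CATG, which 1.93% of all 32851 windows held within a half-site. The same window held a further half-site, GGACTAGCTT, whose better neighbour matched at 3 of 10 positions. The Ccng1 element, at chr11:40755462-40755481 on the minus strand, also had a neighbour that matched at 9 of 10. A 20-base element of adjoining half-sites with at most 1 mismatch stood in 29 of the 32851 windows (0.0883%), and 2 of these belonged to Cdkn1a and Ccng1. The neighbour matched at 7 of 10 positions for Aen (chr7:78895937-78895956) and at 5 of 10 for Mdm2 (chr10:117710925-117710944, minus strand). The Aen element lies in both of that gene's overlapping windows.

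The windows of Cdkn1a and Mdm2 that held a half-site are printed whole because these genes stood above wild-type in both MMTV-Cre arrays. Capitals again mark half-sites.
Cdkn1a chr17:29090729-29091028 plus strand: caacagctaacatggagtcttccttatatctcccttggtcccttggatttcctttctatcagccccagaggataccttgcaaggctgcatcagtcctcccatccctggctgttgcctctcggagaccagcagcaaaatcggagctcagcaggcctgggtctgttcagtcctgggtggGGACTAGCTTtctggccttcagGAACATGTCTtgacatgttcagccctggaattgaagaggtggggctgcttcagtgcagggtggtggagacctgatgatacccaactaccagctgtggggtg
Mdm2 chr10:117710709-117711008 minus strand: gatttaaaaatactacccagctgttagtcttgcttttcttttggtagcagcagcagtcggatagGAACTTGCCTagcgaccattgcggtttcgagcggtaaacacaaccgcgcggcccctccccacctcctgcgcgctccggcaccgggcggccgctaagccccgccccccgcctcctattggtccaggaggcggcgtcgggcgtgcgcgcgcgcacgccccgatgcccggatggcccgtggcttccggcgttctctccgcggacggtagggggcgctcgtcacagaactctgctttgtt
Both sequences come from RefSeq. The printed Cdkn1a window holds 2 CpG dinucleotides with 54.7% G and C, and the Mdm2 window holds 35 with 64.7%. The medians over all windows were 7 and 52.7%. The other Cdkn1a window, further downstream at chr17:29093519-29093818, held no half-site and has 23 CpG dinucleotides with 64.7% G and C. No half-site was found in the windows of Psrc1, Eda2r, Phlda3 or Sesn2, which says only that these letters are absent from the windows searched. A match is a description of sequence and not a measurement of p53 binding.

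The values are log2 expression per probe set from the authors' RMA processing, and differences are MMTV-Cre minus wild-type. A level of one gene cannot be set against that of another, since probes differ. A gene entered the test if its mean reached 2.84, the median of all probe sets, which 11668 genes did, the 10 members among them. No gene passed limma at a Benjamini-Hochberg adjusted p under 0.05 (0%), and 504 (4.32%) had an unadjusted p under 0.05. None of the 10 p53 targets passed. Their log2 differences ran from 0.09 to 0.36 with a median of 0.14, against −0.00 over all genes tested. All 10 were above 0, where 49% of all genes were. In 6 of the 10 both MMTV-Cre arrays lay above both wild-type arrays, which 16.7% of all genes did, and none had both below, which 16.5% did. The 10 were picked with earlier results of these data known, so neither their shared direction nor these counts support a response.

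Markers of the labelled epithelial cells were present, and so were those of other cells. The epithelial genes Epcam and Krt8 stood between 8.52 and 8.67 and between 10.30 and 10.40, and the basal keratin gene Krt14 between 7.27 and 8.07. The 8 fibroblast markers were all above the limit for dim probe sets on their 4-array means, with list means from 7.02 to 7.52. Wild-type replicate 1 stood apart: 11 T and NK cell markers averaged 5.04 there and 2.91 to 2.97 in the other arrays. Nkg7 and Gzmb of this list were little raised, at 3.80 and 3.34 in that array against 3.60 to 3.72 and 2.58 to 3.25 elsewhere. Over the genes tested, this array correlated with the others at 0.977 to 0.980, and the other pairs at 0.983 to 0.987. In such bulk samples a smaller number of cells of a type and less RNA per cell cannot be told apart. Results for the members are therefore given with and without that array.

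Arrest and feedback come first. Cdkn1a (Entrez Gene 12575) encodes the p21 inhibitor of cyclin-dependent kinases, the main effector of p53-driven arrest. It measured 9.45 and 9.58 on MMTV-Cre replicates 1 and 2, against 9.32 and 9.37 on wild-type replicates 1 and 2; later values keep this order. Both MMTV-Cre arrays were above both wild-type arrays, by a gap of 0.08 that was smaller than the 0.14 between the MMTV-Cre arrays themselves. The log2 difference was 0.17 (SE 0.11, 95% interval −0.13 to 0.46, limma adjusted p = 0.964), or 1.12-fold with an interval of 0.917 to 1.38. Mdm2 (Entrez Gene 17246), the ubiquitin ligase that limits p53, measured 7.52 and 7.61 on the MMTV-Cre arrays, against 7.45 and 7.44 on the wild-type arrays. The wild-type arrays differed by 0.01 and the groups did not overlap. Its log2 difference was 0.13 (SE 0.11, interval −0.16 to 0.41, limma adjusted p = 0.976), which is 1.09-fold.

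Ccng1 (Entrez Gene 12450) encodes cyclin G1, which brings a phosphatase to Mdm2. It measured 7.70 and 7.36 on the MMTV-Cre arrays, against 7.31 and 7.50 on the wild-type arrays. The groups overlapped, and the 0.34 between the MMTV-Cre arrays was more than the log2 difference of 0.13 (interval −0.28 to 0.54). Trp53inp1 (Entrez Gene 60599) encodes a stress protein that promotes p53 activation and autophagy. It measured 6.76 and 6.77 on the MMTV-Cre arrays, against 6.66 and 6.58 on the wild-type arrays. The groups did not overlap and both were tight, with 0.01 between the MMTV-Cre arrays and 0.08 between the wild-type arrays. The log2 difference was 0.15 (SE 0.11, interval −0.13 to 0.43). Limma moderates each gene's spread toward that of all genes, so the interval is wider than the 4 values alone would give.

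**Figure D1:**
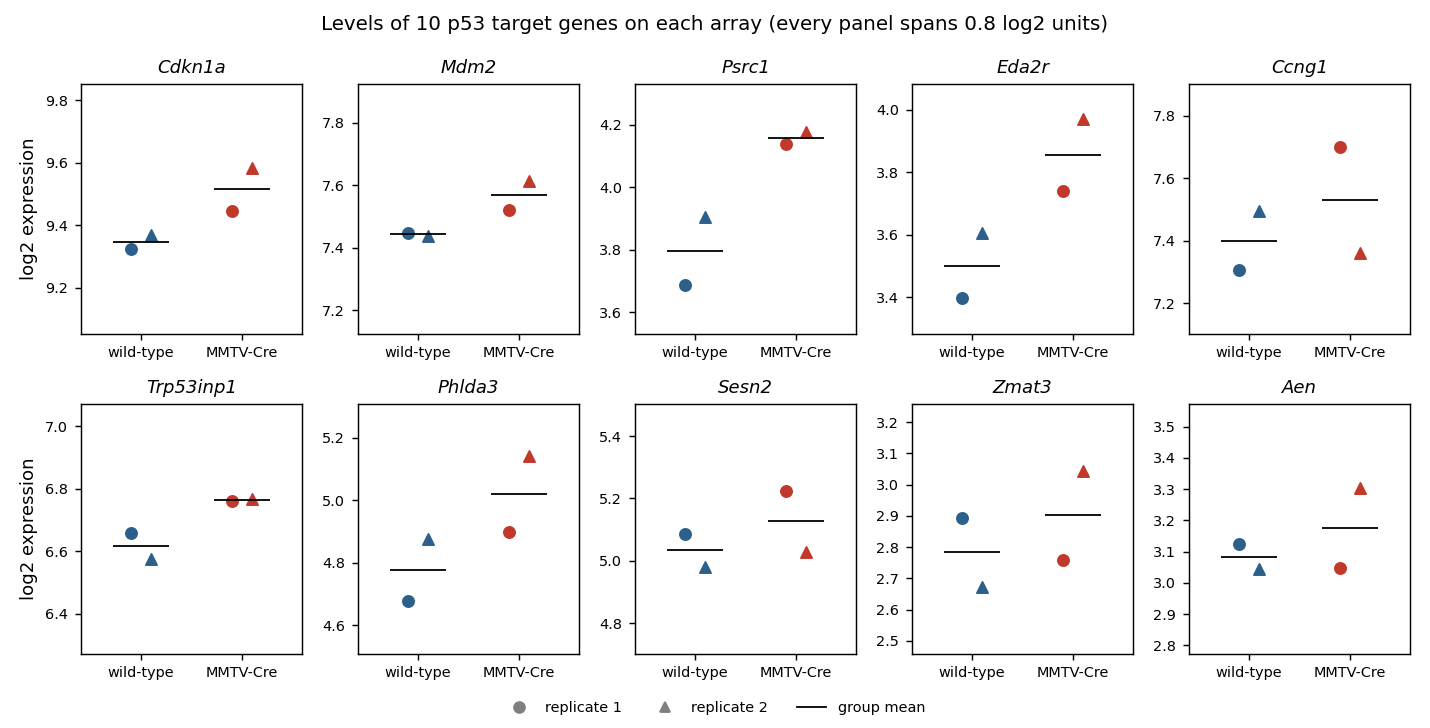
Log2 expression of the 10 p53 target genes on each array, with circles for replicate 1, triangles for replicate 2 and a line at each group mean. Every panel spans the same range in log2 units around its own centre, so heights compare spreads and differences and not levels between genes. In 6 panels both MMTV-Cre points lie above both wild-type points, and in those of Ccng1, Sesn2, Zmat3 and Aen the groups overlap.

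Psrc1 (Entrez Gene 56742) encodes a microtubule-binding protein of the mitotic spindle. It measured 4.14 and 4.18 on the MMTV-Cre arrays, against 3.69 and 3.91 on the wild-type arrays. The groups were 0.23 apart at their nearest arrays, the widest gap among the 10. The log2 difference was 0.36 (SE 0.13, interval 0.04 to 0.68, limma adjusted p = 0.964), which is 1.28-fold with an interval of 1.03 to 1.61. With all 4 arrays it was the only one of the 10 with an unadjusted p under 0.05 in this fit, and it ranked 335 among the 11668 genes by that p. Of all genes, 2.13% had such a p with higher values in MMTV-Cre and 2.19% with lower values. That p rose above 0.05 in 3 of the 4 fits with 1 array left out, all but the one without wild-type replicate 2, and with a variance trend.

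Eda2r (Entrez Gene 245527) encodes a member of the tumour necrosis factor receptors that binds an ectodysplasin isoform. It measured 3.74 and 3.97 on the MMTV-Cre arrays, against 3.40 and 3.61 on the wild-type arrays. The groups did not overlap, and the arrays within each group lay 0.23 and 0.21 apart. The log2 difference was 0.35 (SE 0.14, interval −0.01 to 0.72, limma adjusted p = 0.964), or 1.28-fold. Phlda3 (Entrez Gene 27280) encodes a small lipid-binding protein that keeps the survival kinase AKT from the membrane. It measured 4.90 and 5.14 on the MMTV-Cre arrays, against 4.68 and 4.88 on the wild-type arrays. MMTV-Cre replicate 1 exceeded wild-type replicate 2 by only 0.02, so the separation was slight. The log2 difference was 0.24 (SE 0.14, interval −0.13 to 0.61). Aen (Entrez Gene 68048), the gene of a nuclease that takes part in apoptotic DNA breakdown, measured 3.05 and 3.30 on the MMTV-Cre arrays, against 3.13 and 3.04 on the wild-type arrays. The groups overlapped, and only MMTV-Cre replicate 2 stood apart, with a log2 difference of 0.09 (interval −0.25 to 0.44).

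Sesn2 and Zmat3 act in metabolism and RNA handling. Sesn2 (Entrez Gene 230784) encodes a sestrin that restrains the growth kinase mTORC1 when leucine is short. It measured 5.22 and 5.03 on the MMTV-Cre arrays, against 5.09 and 4.98 on the wild-type arrays. The groups overlapped, with a log2 difference of 0.09 (interval −0.23 to 0.42). Zmat3 (Entrez Gene 22401) encodes a zinc finger protein that binds RNA and takes part in splicing control. It measured 2.76 and 3.04 on the MMTV-Cre arrays, against 2.89 and 2.67 on the wild-type arrays, on both sides of the 2.84 limit for dim probe sets, at which differences are poorly measured. Its log2 difference was 0.12 (interval −0.28 to 0.51) and the groups overlapped.

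**Figure D2:**
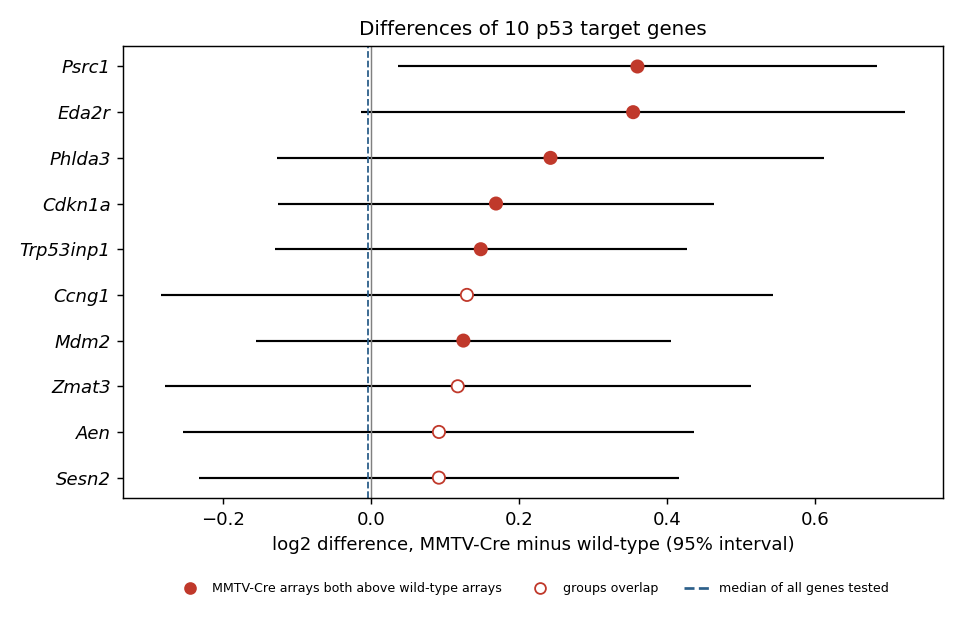
Log2 difference, MMTV-Cre minus wild-type, of each gene with its 95% interval from limma (n = 2 arrays per group), ordered by size. Filled points are genes whose MMTV-Cre arrays both lay above both wild-type arrays, the dashed line is the median of the 11668 genes tested, and only the interval of Psrc1 lies wholly above 0.

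With 2 arrays per group the precision was limited. The median half-width of the intervals was 0.34 log2 units for the 10 and also 0.34 for all genes. The upper ends ran from 0.41 for Mdm2 to 0.72 for Eda2r, so all 10 intervals lay below a log2 difference of 1. The difference exceeded the gap between the arrays of either group in 6 of the 10, the same 6 whose groups did not overlap, against 10.9% of all genes. An exact permutation test of 2 arrays against 2 cannot give a two-sided p below 0.333, so it was not used for single genes.

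The 10 genes did not share one order of the arrays. MMTV-Cre replicate 2 held the highest value of 8 genes and MMTV-Cre replicate 1 that of Ccng1 and Sesn2. The lowest value was in wild-type replicate 1 for 5 genes and in wild-type replicate 2 for the other 5. After each gene's 4-array mean was subtracted, the 10 averaged 0.05 and 0.13 in MMTV-Cre replicates 1 and 2 and −0.11 and −0.07 in wild-type replicates 1 and 2. Wild-type replicate 1, where lymphocyte markers were high, was the lowest for Cdkn1a, Psrc1, Eda2r, Ccng1 and Phlda3.

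Without wild-type replicate 1, all 10 differences remained above 0 with a median of 0.15. That of Psrc1 was 0.25 in place of 0.36, that of Eda2r 0.25 in place of 0.35 and that of Phlda3 0.14 in place of 0.24. The Ccng1 difference was then 0.03, and that of Zmat3 0.23. Leaving out MMTV-Cre replicate 1 turned Ccng1 to −0.040 and Sesn2 to −0.0065, and leaving out MMTV-Cre replicate 2 turned Zmat3 to −0.025 and Aen to −0.035. Without MMTV-Cre replicate 2 the difference was 0.10 for Cdkn1a, 0.08 for Mdm2 and 0.12 for Phlda3, each over 1.5 times smaller than with all arrays. Trp53inp1 moved least, between 0.11 and 0.19. Without wild-type replicate 2, Zmat3 differed by 0.01, Aen by 0.05 and Sesn2 by 0.04. Each of these fits leaves a group with 1 array, which is taken to vary like the other group.

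**Figure D3:**
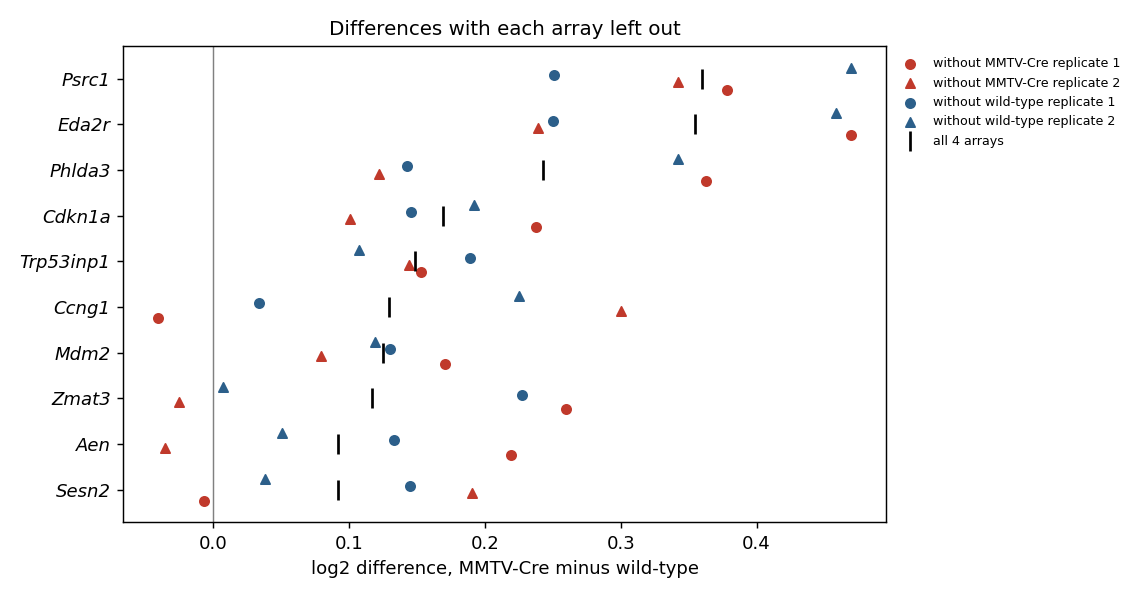
Log2 difference, MMTV-Cre minus wild-type, of each p53 target gene with 1 array left out at a time (coloured points) and with all 4 arrays (black bars). Ccng1, Sesn2, Zmat3 and Aen each have a point below 0, and the remaining 6 genes stay above 0 in every such fit.

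Other genes of the pathway were read from lists written down by function, again with earlier results of the data known. Of 45 further p53 targets, 38 had a probe set with 1 symbol and 31 of these were tested. None passed over all genes by limma, and 1 of the 31 had an unadjusted p under 0.05, where 4.32% of all genes did. Differences were above 0 in 20 of the 31, against 49% of all genes, with a median of 0.03. Both MMTV-Cre arrays lay above both wild-type arrays in 10, against 16.7% of all genes, and below them in 2, against 16.5%. The members' own median of 0.14 stood above it, which the choice of members with results known can set.

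Among 12 tested targets that act in arrest and DNA repair, 7 differences were above 0 (49% of all genes) and the median was 0.03. Btg2, an antiproliferative gene, measured 7.79 and 7.56 on the MMTV-Cre arrays, against 7.45 and 7.37 on the wild-type arrays, a log2 difference of 0.27 (interval −0.07 to 0.60). The kinase gene Plk3 differed by 0.21 and the repair nuclease gene Ercc5 by 0.23, while Plk2, of the same kinase family, differed by 0.05. In these 3 genes too both MMTV-Cre arrays were the higher ones. Rrm2b, a ribonucleotide reductase subunit gene, had both MMTV-Cre arrays below wild-type, by −0.11.

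Among 10 tested cell death targets, 6 differences were above 0 (49% of all genes) and the median was 0.02. Triap1, whose product works in mitochondrial lipid transfer and opposes apoptosis, measured 4.48 and 4.33 on the MMTV-Cre arrays, against 3.78 and 3.96 on the wild-type arrays. The groups did not overlap, and the log2 difference was 0.54 (interval 0.21 to 0.87, limma adjusted p = 0.964). It ran from 0.45 to 0.63 with 1 array left out. Trp53i11 differed by 0.23 and Siva1 by 0.13, and both were higher in both MMTV-Cre arrays. The death receptor genes Fas and Tnfrsf10b differed by 0.02 and 0.03, the apoptosome gene Apaf1 by −0.07 and the junction gene Perp by −0.00. Bbc3 and Pmaip1, genes of BH3-only killers, were below the limit for dim probe sets.

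Among 9 tested targets in metabolism, stress and signalling, 7 differences were above 0 (49% of all genes) and the median was 0.06. Pml, a nuclear body gene, had a log2 difference of −0.21, with both MMTV-Cre arrays the lower ones. The lipase-family gene Abhd4 differed by 0.17 and was higher in both, and the mTORC1 inhibitor gene Ddit4 differed by 0.31 with overlapping groups. Sesn1, the sestrin gene related to Sesn2, differed by −0.14, with 5.46 in wild-type replicate 1 and 4.89 to 5.04 elsewhere.

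Of 15 regulators and kinases of the pathway, 13 were tested, 8 with differences above 0 (49% of all genes) and a median of 0.03. Trp53inp2, listed here as the paralogue of Trp53inp1 and known for its part in autophagy, measured 5.37 and 5.29 on the MMTV-Cre arrays, against 4.90 and 4.83 on the wild-type arrays. The groups were well separated, with a log2 difference of 0.46 (interval 0.18 to 0.75, limma adjusted p = 0.964) and a range of 0.43 to 0.50 with 1 array left out. The damage-sensing kinase gene Atm had a log2 difference of −0.14 and Mdm4, the Mdm2 relative that masks p53, one of −0.09. Both MMTV-Cre arrays were the lower ones for each. In the list of 13, both were lower for 3 (16.5% of all genes) and higher for 2 (16.7%). The checkpoint kinase gene Chek1 differed by −0.33 with a wide interval, −1.03 to 0.38. None of the 13 passed.

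**Figure D4:**
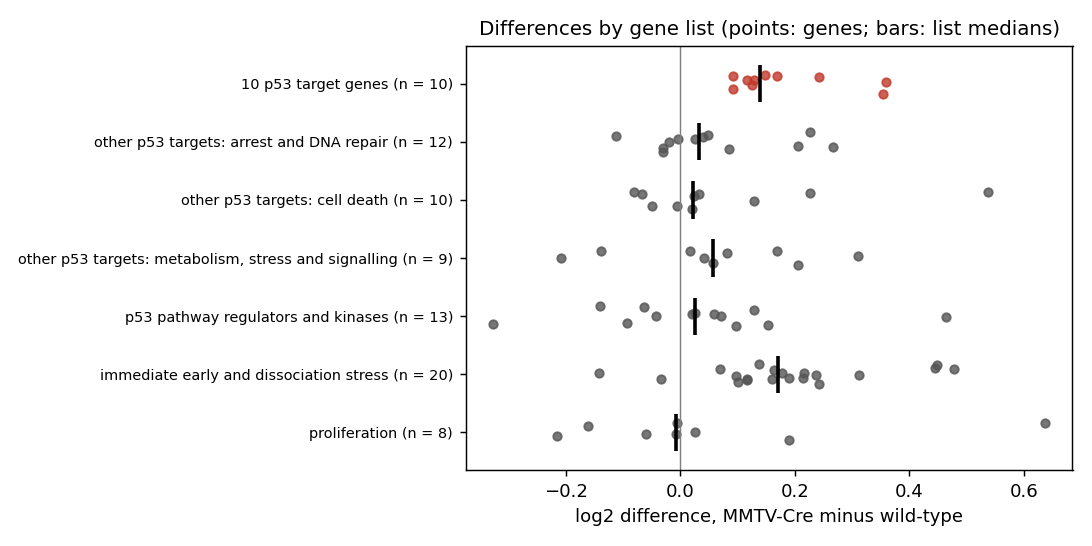
Log2 difference, MMTV-Cre minus wild-type, of each tested gene (points) by list, with a bar at each list's median. The 10 p53 target genes lie between 0.09 and 0.36, the other pathway lists have medians between 0.02 and 0.06, and immediate early genes have a median of 0.17.

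Genes known to respond to tissue handling had differences on the same side as the members. Of 20 immediate early and dissociation stress genes, all tested, 18 had differences above 0 (49% of all genes) and 12 were higher in both MMTV-Cre arrays (16.7% of all genes), with a median of 0.17 and none past the threshold. Their mean deviation was 0.13 and 0.06 in MMTV-Cre replicates 1 and 2 and −0.12 and −0.07 in wild-type replicates 1 and 2. The list means ran from 7.28 to 7.35 in MMTV-Cre and from 7.10 to 7.15 in wild-type, and none of the 20 was below the limit for dim probe sets. Between the MMTV-Cre arrays the order differed, since the stress genes were higher in replicate 1 and the p53 targets in replicate 2. No gene is in both lists, although Atf3 and Klf4 of the stress list are also known p53 targets. Genes listed above as p53 targets may likewise respond to handling, so the lists are not separate classes. The part of tissue handling in the differences of the members and of the other p53 targets was not tested. Fibroblast markers were highest in MMTV-Cre replicate 2, at a list mean of 7.52 against 7.02 in MMTV-Cre replicate 1 and 7.04 and 7.05 in wild-type, the array that also held the highest value of 8 members. Of the 8 fibroblast markers 7 had differences above 0 (49% of all genes) and 5 were higher in both MMTV-Cre arrays (16.7%). Their median was 0.25 and none passed the threshold. Without MMTV-Cre replicate 2 their median was 0.14 and their mean −0.028, with 5 of 8 above 0. The part of stromal RNA was not tested.

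Of 8 tested proliferation genes, 3 were above 0, against 49% of all genes, with a median of −0.01. One of them, the mitotic spindle kinase gene Aurka, measured 3.92 and 3.99 on the MMTV-Cre arrays, against 3.23 and 3.40 on the wild-type arrays. Its log2 difference was 0.64 (interval 0.33 to 0.94, limma adjusted p = 0.964). Of the 8, it was the only gene with both MMTV-Cre arrays higher (16.7% of all genes), and 1 other had both lower (16.5%). Luminal markers deviated by 0.04 and 0.02 in MMTV-Cre and by −0.04 and −0.03 in wild-type, with 8 of 13 above 0 (49% of all genes) and a median of 0.11. Both MMTV-Cre arrays were higher for 3 of the 13 (16.7% of all genes) and lower for 2 (16.5%). Basal markers deviated by −0.07 and 0.10 in MMTV-Cre and by 0.03 and −0.06 in wild-type, with 4 of 8 above 0 (49% of all genes). The contractile genes Acta2 and Cnn1 were the 2 of these with both MMTV-Cre arrays higher (16.7% of all genes), by 0.40 and 0.31. Groups overlapped for the rest of the list. Myh11 and Cdh3 differed by 0.19 and 0.10. Krt14, Trp63, Krt17 and Tagln differed by −0.33, −0.24, −0.18 and −0.01. Mast cell and neutrophil markers lay on the other side from the members, with 6 of 6 differences below 0 and a median of −0.59. Of all genes, 49% were above 0. Both MMTV-Cre arrays were the lower ones for 4 of them, against 16.5% of all genes, and none passed the threshold. Their list means were 3.69 and 3.95 in MMTV-Cre and 4.50 and 4.18 in wild-type, and the mast cell genes Mcpt4, Cpa3 and Cma1 differed by −0.87, −0.73 and −0.46. S100a8 differed by −0.09 with overlapping groups. S100a9 measured 5.19 in wild-type replicate 1 and 3.60 to 3.82 elsewhere. Without wild-type replicate 1 the list's median was −0.41, with 2 of 6 above 0. T and NK cell markers, with Cd4 and Cd8a below the limit for dim probe sets, deviated by 1.73 in wild-type replicate 1 and by −0.55 to −0.61 in the others. The part of these cells in the members' differences was not tested.

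**Figure D5:**
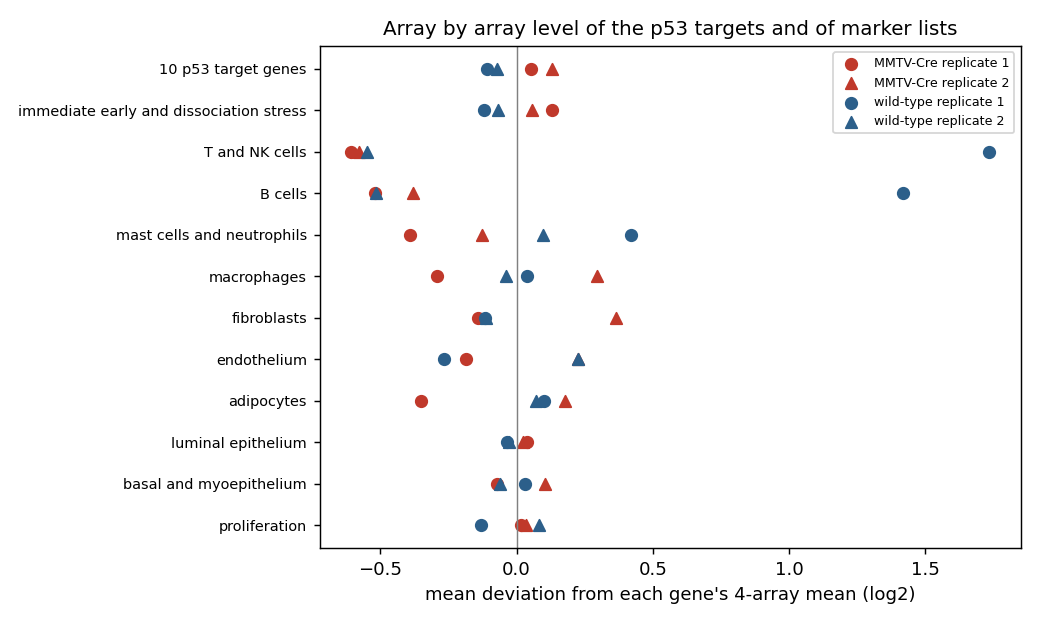
Mean deviation from each gene's 4-array mean, in log2 units, for the 10 p53 target genes and 11 marker lists on each array (colour for group, circles for replicate 1, triangles for replicate 2). The p53 targets, the immediate early genes and, by smaller amounts, the luminal markers lie above 0 in both MMTV-Cre arrays and below 0 in both wild-type arrays. Lymphocyte lists stand out in wild-type replicate 1 and fibroblast markers in MMTV-Cre replicate 2.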

How the data were processed

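The authors deposited log2 values for each probe set, with 1 column per array, made with oligo and RMA per the submitters' processing notes, with versions and the array annotation not given in the sources used here. The log2 scale was read from the values, whose array medians lay between 2.83 and 2.86. RMA corrects background, equalises the arrays' distributions and summarises probes, so these values cannot show a change common to most transcripts. Of 41345 probe sets, the platform annotation gives 23521 exactly 1 symbol, 1814 several and 16010 none, and only the first kind was used. Where a gene had several probe sets, that of highest mean over the arrays was used. Groups were compared over all 11668 genes above the dim limit with limma 3.58.1 in R 4.3.3 (lmFit and eBayes, two-sided, Benjamini-Hochberg adjustment at 0.05), and only the members and the listed genes are reported. The number of arrays, 4, limits the precision.

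The members, the lists and the rules for naming genes were chosen with earlier results of these data known. All 10 members are named, with up to 3 genes of each pathway list by smallest p. Plk2, Rrm2b, Fas, Tnfrsf10b, Apaf1, Perp, Bbc3, Pmaip1, Sesn1, Mdm4, Aurka, Acta2, Cnn1, Myh11, Cdh3, Trp63, Krt17, Tagln, Mcpt4, Cpa3, Cma1, S100a8, S100a9, Nkg7 and Gzmb were added after their values were seen. Alternatives were other filters, normalizations and variance models, probe sets averaged per gene or tested one by one, the replicate number as a block, and leaving out each array. The procedure was tested on simulated data with planted differences larger than any of the members' and a common spread for all genes. That test cannot show whether differences of the members' size would be found. Promoter windows are RefSeq sequences of GRCm38.p6.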

Additional observations from a re-analysis of the deposited data

How the results depend on the processing

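The count of genes past the adjusted limma threshold stayed at 0 in each alternative with all 4 arrays, and ran from 0 to 13 with 1 array left out, the 13 without wild-type replicate 2. None of the 10 p53 targets passed in any alternative. At an unadjusted p under 0.05 the count was 504. The members' median log2 difference lay between 0.14 and 0.16 with all arrays, and between 0.13 and 0.23 with 1 array left out, the higher value without MMTV-Cre replicate 1. Members above 0 numbered 10 in each alternative with all arrays except the stricter filter, which kept only 6 members, all 6 above 0, and 8 to 10 with 1 array left out. With 1 array left out the difference ran from −0.040 to 0.30 for Ccng1, from −0.0065 to 0.19 for Sesn2, from −0.025 to 0.26 for Zmat3 and from −0.035 to 0.22 for Aen. With a variance trend the unadjusted p of Cdkn1a went from 0.200 to 0.0290 and that of Psrc1 from 0.0353 to 0.0621. That of Psrc1 was 0.0347 to 0.186 with 1 array left out. That of Eda2r, 0.0561 with the main settings, was 0.0381 with quantile normalization, 0.0473 with median centring, 0.0396 with the replicate block, 0.0470 without MMTV-Cre replicate 1 and 0.235 without wild-type replicate 1.

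Whether the replicate number in the labels pairs the samples is not known. Deviations of same-numbered arrays correlated at −0.04 over 11668 genes, which cannot settle it for single genes. Cdkn1a, Psrc1, Eda2r and Phlda3 were higher in replicate 2 of both groups and Sesn2 in replicate 1 of both. The remaining members had no such shared order. With the replicate number as a block 0 genes passed, 445 had an unadjusted p under 0.05 by limma, and the members' median was 0.14. Each member has 1 probe set, so the alternatives on probe sets left the members' differences as they were. Signal near the dim limit restricts Zmat3 and Aen most, and the stricter limit of 4.56 left out Psrc1, Eda2r, Zmat3 and Aen.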
